A study of Arabidopsis thaliana with 12 samples.

Results

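Indole glucosinolates are sulfur- and glucose-containing defence compounds that Arabidopsis thaliana makes from tryptophan, and 10 genes of their core synthesis and its transcriptional control are described here: the enzyme genes CYP79B2, CYP79B3, CYP83B1, GGP1, SUR1, UGT74B1 and SOT16, and the regulator genes MYB34, MYB51 and MYB122. They were chosen by locus for their known function, with earlier results of these data known. Each of the 10 had a row of its own at every time and was tested there, among 26797, 26605 and 26664 rows at 3, 24 and 48 h, of which 19480, 19326 and 19415 were tested. The RNA came from whole seedlings, either control seedlings or seedlings exposed to the volatile compounds (mVCs in the labels) of the fungus Tolypocladium inflatum strain GT22, sampled at 3, 24 or 48 h, and the series asks which molecular responses these volatiles set off. There were 2 libraries in each of 6 groups, 12 in all, and the labels give no plant age, accession line, growth medium or number of seedlings, and do not say whether the 2 libraries came from separate cultures. The unit is FPKM, a fragment count corrected for transcript length and sequencing yield, and the authors' deposited tables hold 1 value per gene and group, so the spread between libraries cannot be seen and the sequencing depth is unknown.

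In the pathway, CYP79B2 and CYP79B3 turn tryptophan into indole-3-acetaldoxime, the branch point that also leads to the phytoalexin camalexin and to auxin. CYP83B1 oxidises the aldoxime, glutathione is added, GGP1 trims the glutathione conjugate, and the C-S lyase SUR1 releases a thiohydroximate. UGT74B1 then adds glucose, and the sulfotransferase SOT16 adds the sulfate that completes the molecule. MYB34, MYB51 and MYB122 are related R2R3-type factors that switch on these genes, together with the bHLH factors MYC2, MYC3 and MYC4. GGP1, SUR1 and UGT74B1 also serve the methionine-derived aliphatic branch, whereas the CYP79B enzymes, CYP83B1 and SOT16 act mainly on the indole side.

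The genes lie on chromosomes 1, 2, 4 and 5 of the TAIR10.1 assembly, and none of the 10 overlaps another annotated gene there. CYP79B2 (AT4G39950) spans chromosome 4, 18525042 to 18527602, and CYP79B3 (AT2G22330) spans chromosome 2, 9488413 to 9491404. CYP83B1 (AT4G31500) lies at 15273410 to 15275404 and GGP1 (AT4G30530) at 14920376 to 14922519, both on chromosome 4. SUR1 (AT2G20610) lies on chromosome 2 at 8877887 to 8880440, and UGT74B1 (AT1G24100) on chromosome 1 at 8525334 to 8527087. Also on chromosome 1, MYB122 (AT1G74080, 27855578 to 27857598) and SOT16 (AT1G74100, 27864345 to 27865694) lie on either side of SOT18, a sulfotransferase gene of the aliphatic branch, whose end is 151 bases from SOT16. MYB51 (AT1G18570) spans chromosome 1, 6389399 to 6391386, and MYB34 (AT5G60890) chromosome 5, 24494291 to 24496371.

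The upstream sequences of the enzyme genes are shown because these genes had values on the same side of control at 3 and 48 h, as described below. Windows were the 250 bases before the annotated gene start, read in the direction of the gene from the RefSeq annotation of TAIR10.1. The windows of CYP79B2 (chr4:18524792-18525041, plus strand) and CYP79B3 (chr2:9488163-9488412, plus strand) share a block of 40 bases with 1 mismatch, which stands in capitals in both:
CYP79B2: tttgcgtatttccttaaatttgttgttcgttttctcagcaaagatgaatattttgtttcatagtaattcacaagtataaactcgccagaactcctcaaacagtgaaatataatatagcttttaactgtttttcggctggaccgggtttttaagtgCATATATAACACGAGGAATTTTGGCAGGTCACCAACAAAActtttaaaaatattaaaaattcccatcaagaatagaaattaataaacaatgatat
CYP79B3: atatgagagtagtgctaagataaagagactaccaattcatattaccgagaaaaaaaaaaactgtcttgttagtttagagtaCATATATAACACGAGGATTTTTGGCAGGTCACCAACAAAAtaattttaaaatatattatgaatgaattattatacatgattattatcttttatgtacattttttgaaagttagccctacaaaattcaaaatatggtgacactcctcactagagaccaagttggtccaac

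The block runs from base -95 to -56 of CYP79B2 and from -169 to -130 of CYP79B3, counted back from the gene start. It is made of exact runs of 17 and 22 bases, and each run occurred in 2 of the 27443 promoter windows of coding genes, those of this gene pair. No other of the 45 pairs among the 10 windows shared an exact run of 15 bases on the same strand. The block was noticed after the windows had been read, and its function was not tested.

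Known motifs were also searched on both strands: the G-box CACGTG, which MYC factors bind, the AC elements ACCAACC and ACCTACC, which R2R3 MYB factors bind, and TTGACC, a form of the W-box of WRKY factors. Other forms of the W-box, such as TTGACT, were not searched. The G-box occurred in 6.49% of all 27443 windows, ACCAACC in 2.69%, ACCTACC in 1.16% and TTGACC in 12.2%, and 20.8% held at least 1 of them. TTGACC and ACCAACC can overlap in the letters ACC. Of the 10 windows, 3 held a motif, and these are printed with the motif in capitals (SUR1, chr2:8880441-8880690; UGT74B1, chr1:8527088-8527337; SOT16, chr1:27865695-27865944; all minus strand):
SUR1: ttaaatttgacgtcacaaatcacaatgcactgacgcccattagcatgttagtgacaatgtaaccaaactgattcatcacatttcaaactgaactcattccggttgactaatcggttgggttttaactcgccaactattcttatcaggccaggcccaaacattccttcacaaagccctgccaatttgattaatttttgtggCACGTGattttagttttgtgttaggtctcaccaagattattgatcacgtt
UGT74B1: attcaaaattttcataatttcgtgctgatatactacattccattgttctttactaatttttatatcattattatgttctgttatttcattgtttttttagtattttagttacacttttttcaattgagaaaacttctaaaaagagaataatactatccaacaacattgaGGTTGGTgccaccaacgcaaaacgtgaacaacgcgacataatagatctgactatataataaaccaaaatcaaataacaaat
SOT16: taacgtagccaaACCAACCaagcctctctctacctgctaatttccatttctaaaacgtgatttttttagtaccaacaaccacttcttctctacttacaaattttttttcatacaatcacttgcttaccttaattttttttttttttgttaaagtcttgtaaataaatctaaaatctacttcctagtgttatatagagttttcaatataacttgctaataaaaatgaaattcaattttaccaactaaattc

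SUR1 held the G-box at -50 to -45. UGT74B1 held ACCAACC on the opposite strand at -81 to -75, and SOT16 held it at -238 to -232. A match of letters in a window is a description of that window and not a binding site.

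**Figure D1:**
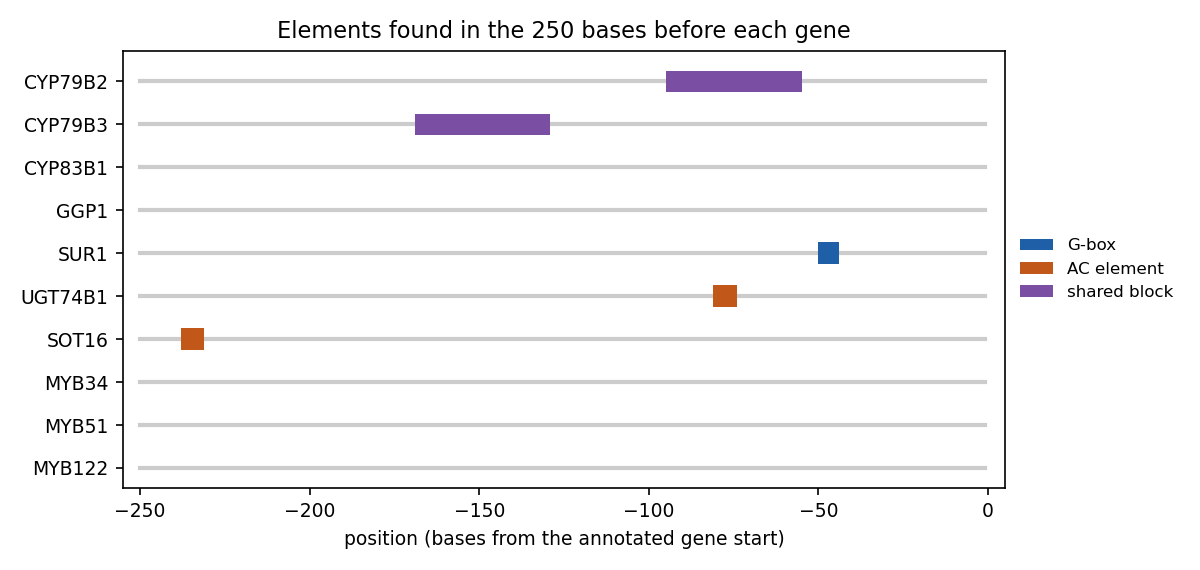
Positions of the motifs and of the shared block in the 250 bases before each of the 10 genes, with bases counted back from the annotated gene start on the x axis. The shared block lies at -95 to -56 in CYP79B2 and -169 to -130 in CYP79B3, SUR1 holds a G-box, and UGT74B1 and SOT16 an AC element.

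At 3 and 48 h all 7 enzyme genes had higher FPKM values under the volatiles than in control, by 14.0% to 28.6% at 3 h and by 17.7% to 33.6% at 48 h, and none passed the q-value threshold of 0.05. At 24 h 5 of the 7 were above control and 2 below, with changes from -11.5% to 14.3%. The 3 MYB genes did not share this direction: at 3 h 1 of 3 and at 48 h 1 of 3 stood above control. By the authors' deposited tables, none of the 10 genes had a q-value under 0.05 at any time, where 0.113%, 0.124% and 0.252% of all tested rows did at 3, 24 and 48 h. The smallest q-value of the 10 was 0.9998 at 3 h, 0.9996 at 24 h and 0.9993 at 48 h. Going by p-values without adjustment, the authors' deposited tables put 3 of the 10 higher at 3 h, 0 at 24 h and 5 at 48 h (p-value under 0.05), against 0.955%, 1.01% and 1.55% of all tested rows that were higher at that threshold, and none was lower. When p-values were instead derived from the deposited statistic as a standard normal value, these counts were 0, 0 and 0, against 0.277%, 0.331% and 0.644% of all tested rows. For all 30 values of the 10 genes the p-value derived this way was larger than the deposited one. The deposited p-values were thus not computed from the statistic in this way.

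CYP79B2, the first enzyme of the route, went from 31.25 FPKM in control to 36.7 under the volatiles at 3 h, from 51.0 to 55.2 at 24 h, and from 44.0 to 58.8 at 48 h. The volatile value was the higher one at each time, and the gap was widest at 48 h. There its log2 fold change was 0.42 with an implied error of 0.25, and the authors' deposited table gave it p = 0.01745, the smallest p-value of the 10 genes at any time. The implied error is what remains when the fold change on the log2 scale is divided by the statistic of the table, and for all 30 values here it was wider than the deposited p-value alone would give. Its 95% interval at 48 h ran from -0.08 to 0.91. CYP79B3, the second gene for the same step, stood at 28.9 and 33.6 FPKM at 3 h, 43.5 and 47.8 at 24 h, and 38.4 and 45.2 at 48 h, control first. It too was higher under the volatiles at all 3 times, by 0.22, 0.14 and 0.23 on the log2 scale, with p-values of 0.1867, 0.474 and 0.18455 in the authors' deposited tables. CYP79B2 made up 52.0% to 56.5% of the FPKM summed over both genes in the 6 groups. Its share was 53.4% in control and 56.5% under the volatiles at 48 h, and no test of this share could be made from 1 value per group. The coding sequences of the pair were 80.8% identical over 1694 aligned bases, with a longest shared run of 32 bases. No source used here states the read length, so reads that could fall to either gene cannot be counted.

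CYP83B1, which commits the aldoxime to glucosinolates, stood at 75.7 and 96.4 FPKM at 3 h, 102.2 and 94.6 at 24 h, and 99.7 and 128.3 at 48 h, control first. It was above control at 3 and 48 h and below it at 24 h. Its log2 fold changes were 0.35, -0.11 and 0.36, with implied errors of 0.23, 0.27 and 0.25, and its p-values in the authors' deposited tables were 0.0285, 0.554 and 0.04275.

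GGP1, the gamma-glutamyl peptidase, was the most abundant of the 10 genes in every group, with 113.6 and 129.5 FPKM at 3 h, 139.9 and 152.4 at 24 h, and 147.1 and 188.4 at 48 h, control first. The volatile value was the higher one each time, by 0.19, 0.12 and 0.36 on the log2 scale, and the authors' deposited table gave it p = 0.04455 at 48 h. SUR1 stood at 39.0 and 50.1 FPKM at 3 h, at 72.8 and 83.2 at 24 h, and at 70.6 and 92.8 at 48 h. It had the highest log2 fold change of the 7 enzyme genes at 3 h and at 24 h, 0.36 and 0.19, and the second highest at 48 h, 0.39. Its p-values in the authors' deposited tables were 0.02545, 0.307 and 0.0228.

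UGT74B1 went from 35.6 to 43.1 FPKM at 3 h, from 41.8 to 46.2 at 24 h and from 41.9 to 54.4 at 48 h, by 0.28, 0.14 and 0.38 on the log2 scale, with p-values of 0.09815, 0.4415 and 0.03755 in the authors' deposited tables. SOT16, the last enzyme, stood at 46.1 and 54.7 FPKM at 3 h, 65.6 and 58.1 at 24 h, and 59.4 and 75.1 at 48 h. Like CYP83B1 it was above control at 3 and 48 h and below it at 24 h, the log2 ratios being 0.25, -0.18 and 0.34, and none of its 3 p-values, 0.1362, 0.3523 and 0.05725 in the authors' deposited tables, was under 0.05. SOT16 is 80.5% identical to SOT18 over its coding sequence, with a longest shared run of 32 bases.

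**Figure D2:**
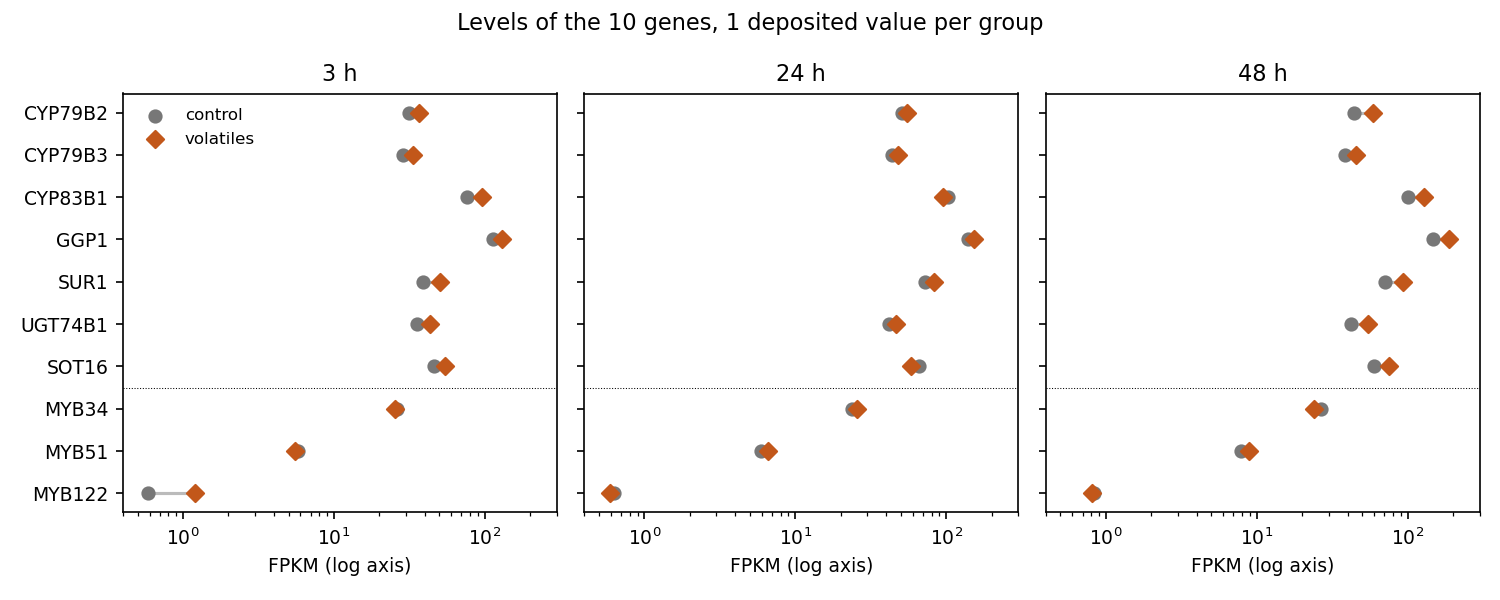
FPKM of the 10 genes on a log axis at 3, 24 and 48 h, with 1 deposited value per group: grey circles for control, orange diamonds for volatiles, and a dotted line between enzyme and MYB genes. At 3 and 48 h the diamond lies to the right of the circle for all 7 enzyme genes, while GGP1 is the highest and MYB122 the lowest throughout.

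MYB34, a regulator of indole glucosinolate synthesis, stood at 26.0 and 25.2 FPKM at 3 h, 23.7 and 25.7 at 24 h, and 26.6 and 23.9 at 48 h, control first. It was below control at the 2 times when all enzyme genes were above it, the log2 ratios being -0.04, 0.12 and -0.15, with p-values from 0.412 to 0.8071 in the authors' deposited tables. MYB51, also known as HIG1 and involved in defence-induced indole glucosinolates, stood at 5.81 and 5.48 FPKM at 3 h, 5.95 and 6.54 at 24 h, and 7.83 and 8.84 at 48 h. Its log2 fold changes were -0.08, 0.14 and 0.17, all smaller than their implied errors of 0.31, 0.34 and 0.30. MYB122, the least expressed of the 3, went from 0.588 to 1.21 FPKM at 3 h and stood at 0.629 and 0.594 at 24 h and 0.832 and 0.810 at 48 h. Its log2 fold change of 1.04 at 3 h was the largest of the 10 genes at any time, with an implied error of 0.67 and a 95% interval from -0.27 to 2.34. The authors' deposited table gave it p = 0.03945. With 1 FPKM added to both values it was 0.47. MYB122 lay in the lowest 5.55% of tested rows by level at 3 h, so its fold change is the least precisely known of the 10.

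MYB34 held 71.3% to 80.2% of the FPKM summed over the 3 MYB genes in the 6 groups, MYB51 17.2% to 26.3% and MYB122 1.81% to 3.78%. MYB34 was 4.47 times as abundant as MYB51 in control and 4.60 times under the volatiles at 3 h, 3.98 and 3.93 times at 24 h, and 3.40 and 2.71 times at 48 h. The coding sequences of MYB51 and MYB122 were 77.2% identical, those of MYB34 and MYB51 70.2%, and those of MYB34 and MYB122 68.0%, with no shared run over 22 bases.

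**Figure D3:**
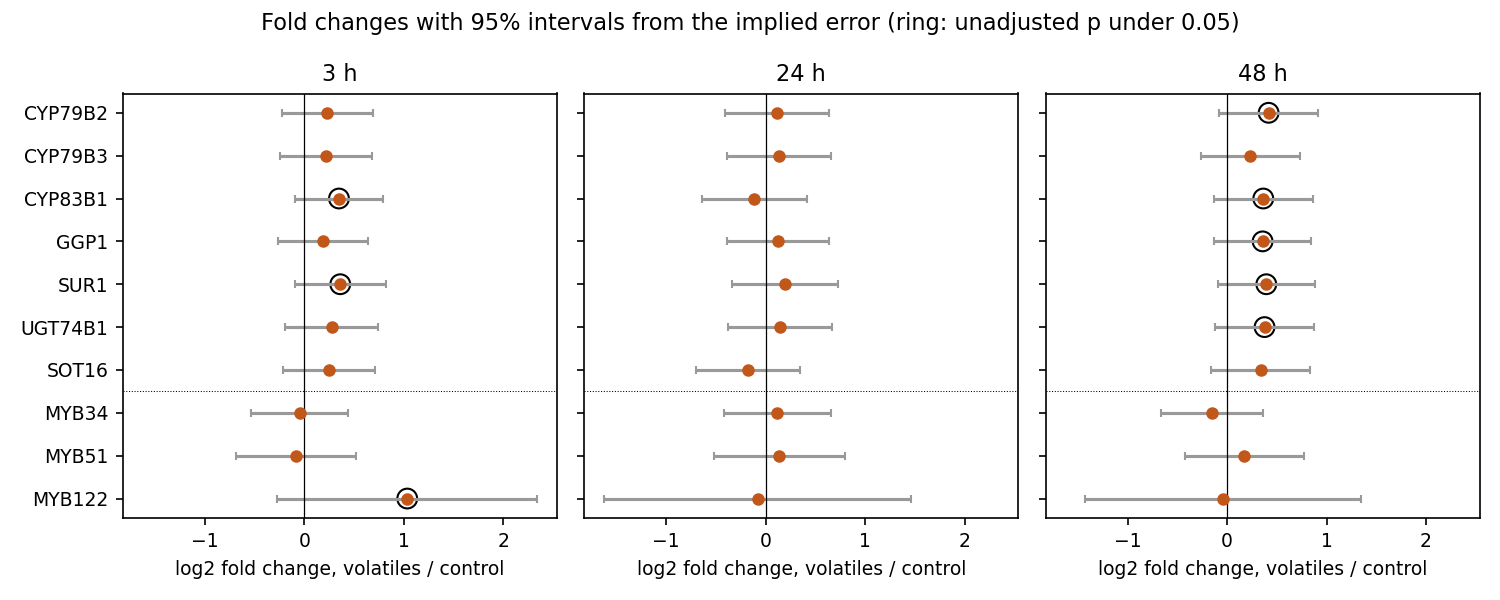
Log2 fold change, volatiles over control, of the 10 genes at 3, 24 and 48 h, with 95% intervals from the implied error, and a ring where the deposited unadjusted p-value was under 0.05. All 30 intervals include 0, also where a ring marks the gene. The implied error is wider than the deposited p-value alone would give, so interval and ring can differ. Rings mark 3 genes at 3 h, none at 24 h and 5 at 48 h, all above 0.

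By level, the order GGP1, CYP83B1 at the top and MYB34, MYB51, MYB122 at the bottom was the same in all 6 groups. The other 5 enzyme genes changed places between times, but at each time the order was the same in control and under the volatiles. These neighbours in the order, such as CYP79B2 and CYP79B3 in the 3 h controls at 31.25 and 28.9 FPKM, cannot be separated without the spread between libraries. The 7 enzyme genes lay between the 76.3 and 95.2 percentiles of tested rows by mean FPKM over the 3 times, and MYB34 between 71.1 and 71.8. Summed over the 7 enzyme genes, FPKM went from 370.0 to 444.2 at 3 h, from 516.9 to 537.4 at 24 h, and from 501.2 to 643.0 at 48 h, which are changes of 20.1%, 3.99% and 28.3%. The same sum over the 3 MYB genes changed by -1.48%, 8.55% and -4.77%. The 3 tables were built separately, so levels are not compared between times.

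The median log2 fold change of the 10 genes was 0.24 at 3 h, 0.12 at 24 h and 0.35 at 48 h, against -0.01, -0.02 and -0.004 over all tested rows. For the 7 enzyme genes it was 0.25, 0.12 and 0.36. Over all tested rows 47.6%, 45.3% and 49.0% had a fold change above 0, and among rows that averaged 20 FPKM or more, the range that holds the enzyme genes, 54.3%, 37.7% and 54.2% did. Within those rows the enzyme genes lay between the 94.0 and 99.1 percentiles of log2 fold change at 3 h and between 94.9 and 98.8 at 48 h. At 24 h they were spread from the 22.4 to the 93.4 percentile. MYB34 lay at 30.2, 86.8 and 11.3. Unadjusted p-values under 0.05 with a higher value were held by 0.851%, 0.687% and 1.35% of the rows at this level, and by 2, 0 and 5 of the 7 enzyme genes. Genes of 1 pathway are not independent of each other, and these percentiles describe the tables only. The smallest absolute log2 fold change that was called among rows of this level was 0.71 at 3 h, 0.77 at 24 h and 0.69 at 48 h, and each fold change of the 7 enzyme genes was below it. The highest upper end of their 95% intervals was 0.82, 0.72 and 0.91, above that size at 3 and 48 h and below it at 24 h, where the lowest lower end was -0.70. These intervals come from the implied error and are wider than the deposited p-values alone would give.

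**Figure D4:**
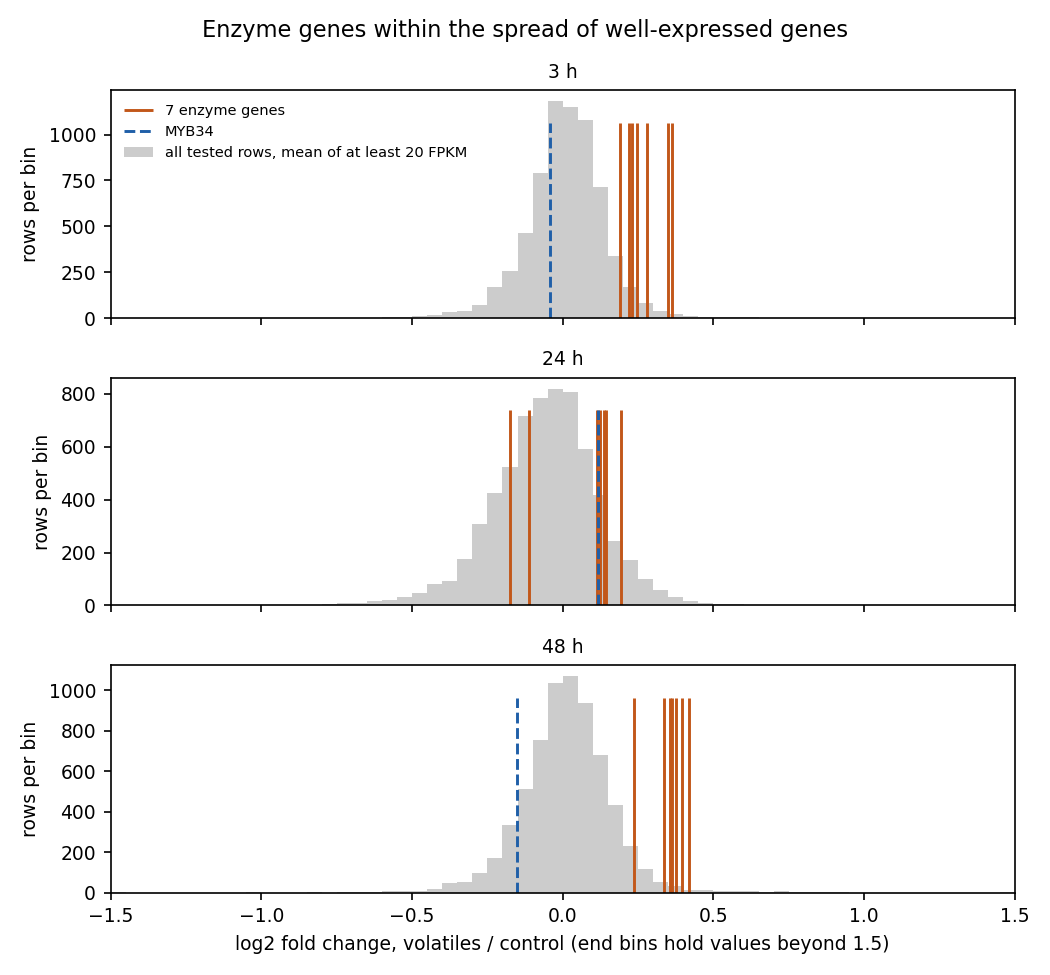
Number of tested rows that averaged 20 FPKM or more, in bins of log2 fold change, volatiles over control, at 3, 24 and 48 h (grey), with the 7 enzyme genes (orange lines) and MYB34 (blue dashed line). At 3 and 48 h the orange lines lie in the upper flank, from 0.19 to 0.36 and from 0.23 to 0.42, and at 24 h on both sides of 0.

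Whether fold changes differed between times was tested over all rows that averaged 1 FPKM or more in each table, using each fold change with its implied error. Of the 9 genes that met this level, 0 passed at an adjusted p-value under 0.05 in any of the 3 comparisons (two-sided normal test, Benjamini-Hochberg), and 0 had an unadjusted p-value under 0.05. Over all rows 0.0% passed for 24 against 3 h, 0.0238% for 48 against 3 h and 0.00594% for 48 against 24 h. Unadjusted p-values under 0.05 in this test were held by 47 of 16698, 74 of 16818 and 71 of 16843 rows, in that order. These are far fewer than a share of 0.05 of the rows, so a count of 0 among 9 genes says little. MYB122 averaged under 1 FPKM and was not among the 9, its log2 ratios being 1.04, -0.08 and -0.04 at 3, 24 and 48 h. Among the 9 genes the widest difference was that of SOT16 between 24 and 48 h, 0.51 with a 95% interval from -0.21 to 1.23. CYP83B1 followed with 0.48, from -0.25 to 1.20. A difference of the 24 h values from those at 3 or 48 h was therefore not shown. With errors taken from the deposited p-values, SOT16 had an unadjusted p-value of 0.0478 for 48 against 24 h and an adjusted one of 0.9999, by the same normal test. Over all rows, 285 of 16708, 273 of 16830 and 234 of 16857 then had an unadjusted p-value under 0.05, in the order above. Of these rows 1, 10 and 8 passed after adjustment, so the row counts depend on the error used.

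Genes around this core were described from lists of the same pathway. Tryptophan supply had 6 of 6 genes with a row of their own above 0 at 3 h, 3 of 7 at 24 h and 7 of 7 at 48 h, with medians of 0.14, -0.02 and 0.26 and 0 called at any time. ASB1, a subunit of anthranilate synthase, was left out at 3 h, where it shared a row with another gene. The log2 ratio of that row was -0.016. At 48 h ASB1 stood at 27.4 and 38.1 FPKM, and TSA1, a subunit of tryptophan synthase, at 75.7 and 98.6, with p-values of 0.02735 and 0.0303 in the authors' deposited table. The log2 ratio was 0.29 at 3 h for PAI1, an isomerase of the same route, and at 24 h it was 0.14 for ASA1, the other anthranilate synthase subunit, and -0.15 for TSA1.

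Of the 7 genes of conjugation, sulfate donor supply and transport, 0 were called, with medians of 0.14, 0.11 and 0.26. APK2, an APS kinase that supplies the sulfate donor for SOT16 and the coding gene next to CYP79B2, 3436 bases upstream of it, stood at 32.9 and 50.2 FPKM at 3 h, 58.1 and 70.1 at 24 h and 59.7 and 87.3 at 48 h. Its p-values in the authors' deposited tables were 0.00025, 0.14175 and 0.00255, with q-values of 0.143, 0.9996 and 0.420. APK1, the related kinase, had log2 fold changes of 0.17 and 0.43 at 3 and 48 h, and GSTF10, a glutathione S-transferase, one of 0.25 at 24 h. GGP3, a relative of GGP1 that lies near it on chromosome 4 and overlaps another annotated gene, had log2 ratios of -0.09, -0.07 and -0.01.

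The step after the core showed no common direction. Of 11 genes that modify or activate indole glucosinolates, 6, 6 and 4 were above 0 at 3, 24 and 48 h, the medians were 0.01, 0.01 and -0.01, and 0 were called. IGMT1, an O-methyltransferase, stood at 13.1 and 9.35 FPKM at 3 h and at 16.7 and 12.7 at 48 h, control first, with p-values of 0.0157 and 0.0559 in the authors' deposited tables. For IGMT2 the log2 ratio was -0.24 at 3 h, and since IGMT1 to IGMT4 are close copies, the split of reads among them is uncertain. CYP81F2, which hydroxylates the indole ring, stood at 4.44 and 5.80 FPKM at 24 h and at 5.66 and 8.07 at 48 h, with p-values of 0.1066 and 0.0234 in the authors' deposited tables. For IGMT5 the log2 ratio was -0.32 at 24 h.

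The aliphatic counterparts of the core enzymes and MYBs had 9 of 9 tested genes above 0 at 3 h, 8 of 10 at 24 h and 9 of 10 at 48 h, with medians of 0.47, 0.21 and 0.44. CYP79F1, which takes the place of the CYP79B enzymes in that branch, rose at 3 h from 2.13 to 5.85 FPKM and at 48 h from 46.5 to 86.9, with q-values of 0.0443 and 0.0221 in the authors' deposited tables. It was the 1 called gene of this list at each of the 2 times, and 0 were called at 24 h. SOT17, a sulfotransferase gene near MYB51 on chromosome 1 with 1 coding gene between them, went from 12.1 to 19.0 FPKM at 3 h (q = 0.221 in the authors' deposited table), and its log2 ratios at 24 and 48 h were 0.14 and 0.45. SOT18, between MYB122 and SOT16, overlaps another annotated gene and had log2 ratios of 0.30, -0.14 and 0.28, beside 0.25, -0.18 and 0.34 for SOT16. The log2 ratios of CYP83A1 were 0.58, 0.27 and 0.43 at 3, 24 and 48 h. That of CYP79F2 was 0.37 at 24 h, and that of GSTU20 was 0.51 at 48 h. By unadjusted p-values under 0.05 in the authors' deposited tables, 5 of 9, 0 of 10 and 6 of 10 genes of this list were higher. Of all tested rows 0.955%, 1.01% and 1.55% were higher at that threshold.

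In the camalexin branch, which starts from the same aldoxime, PAD3, the last enzyme, rose at 48 h from 2.99 to 6.98 FPKM (q = 0.0221 in the authors' deposited table). It was not called at 3 or 24 h, where its log2 ratios were 0.18 and 0.17. CYP71A13, the aldoxime dehydratase, stood at 0.732 and 0.379 FPKM at 3 h and 1.34 and 2.11 at 48 h, with implied errors of 1.54 and 1.002, and its relative CYP71A12 had a log2 ratio of 0.09 at 24 h. Of the MYC partners and other upstream regulators 0 of 7 were called, and 0, 1 and 4 of 7 were above 0 at 3, 24 and 48 h. MYC2, a jasmonate-responsive partner of the MYB factors, stood at 9.05 and 8.40 FPKM at 24 h and at 9.89 and 12.8 at 48 h, with p-values of 0.59525 and 0.04945 in the authors' deposited tables. The log2 ratio of MYC3 was -0.13 at 3 h, that of WRKY33 -0.37 at 3 h and 0.27 at 48 h, and that of SLIM1, a regulator of the sulfur deficiency response, -0.37 at 24 h.

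**Figure D5:**
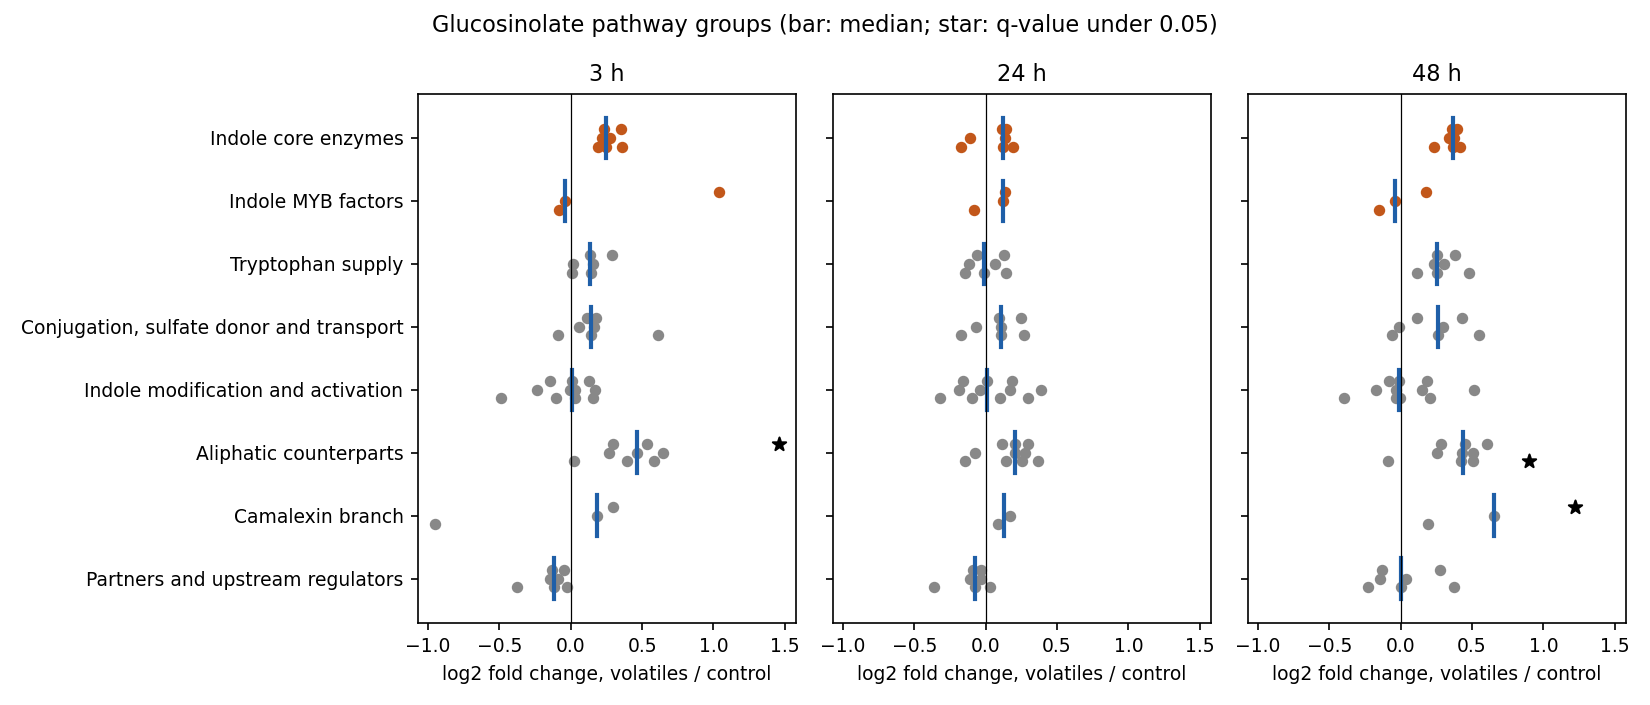
Log2 fold change, volatiles over control, of tested genes in the core enzyme and MYB groups (orange) and in 6 surrounding pathway lists (grey) at 3, 24 and 48 h, with a bar at each median and a star for a q-value under 0.05. The core enzymes have medians of 0.25, 0.12 and 0.36, and the stars are CYP79F1 at 3 and 48 h and PAD3 at 48 h.

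The seedling label was checked against organ markers. All 5 shoot markers stood between 1670 and 20738 FPKM in control, and all 5 root markers between 4.39 and 155.2 FPKM, with none at 0. The summed root markers went from 181.6 to 217.3 FPKM at 3 h, from 226.7 to 205.2 at 24 h and from 177.4 to 204.9 at 48 h, with 4, 2 and 3 of 5 above 0. IRT1, an iron transporter gene of the root list, was called at 48 h, and without it the sums were 149.1 and 166.0, 195.7 and 176.2, and 155.9 and 164.5 FPKM. The summed shoot markers went from 43240 to 45689, from 37106 to 36877 and from 38874 to 37314 FPKM. The root sum was thus higher under the volatiles at 3 and 48 h and lower at 24 h, as CYP83B1 and SOT16 were. Most of that sum was the marker AT5G43350, at 105.3 and 121.0, 155.2 and 135.9, and 110.4 and 118.2 FPKM, control first. Log2 ratios at 3, 24 and 48 h were 0.08, -0.14 and 0.10 for EXPA7 and 0.66, -0.10 and 0.91 for IRT1. They were 0.25, 0.11 and -0.15 for COBL9 and -0.07, 0.11 and -0.02 for SCR, so the root markers did not share a direction. A part of root RNA in the values of CYP83B1 and SOT16 was not tested. In RNA of whole seedlings, a change in the share of an organ or cell type and a change of RNA per cell cannot be told apart.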

How the data were processed

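The submitters' processing notes name Trimmomatic 3.6, TopHat and the TAIR10 build. The authors deposited FPKM values, a single one for each gene in each group. The p-values and q-values and the test statistic, a score, are the authors' own, from volatile against control. Per the file headers, the columns are arranged as Cuffdiff arranges a gene test, but no source used here states which tool was run. The time of a table comes from its name. Group columns cannot be tied to single libraries, and nothing else in the tables holds values by sample. The labels do not say whether the 2 libraries of a group are technical, so the p-values may measure technical spread only.

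The deposited q-values differed from a Benjamini-Hochberg adjustment of the p-values over tested rows by at most 5.21e-07. Log2 fold changes were computed from FPKM without a pseudocount, because some deposited fold changes could not be read. Tests between times took rows that averaged 1 FPKM or more in each table. They left out rows whose p-value was 0.05 or more although the statistic gave a smaller one. Their calculation was checked, without that exclusion, on fold changes simulated from the same implied errors that the test then used. Such a check cannot show that these errors hold for the data. Rows without a gene name were 1.24% to 1.29%. The members and lists were chosen with earlier results of these data known. Of 47 pathway genes and 11 markers, 2 and 1 were dropped because the reference gives no matching symbol, and rows that merge genes were left out (ASB1 at 3 h). MYB76 at 3 h and CYP71A13 at 24 h were untested. Named beside the 10 genes are list genes with a q-value under 0.05, the 2 smallest p-values per list and time, and pathway genes next to a member (SOT18, APK2) or with 1 coding gene between (SOT17, GGP3).

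All single-gene rows overlapped their gene in TAIR10.1 on the same chromosome, and 13.9% to 14.0% had the same bounds. Coordinates and sequences are those of TAIR10.1. Coding-sequence identity, computed in place of protein identity, used a global alignment in Biopython 1.88, and other steps used Python 3.11.15, pandas 2.3.3, SciPy 1.17.1 and matplotlib 3.10.9.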

Additional observations from a re-analysis of the deposited data

How the results depend on the processing

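No paired analysis was possible because the tables hold 1 value per group, and for the same reason leaving out single libraries was not run. No gene of the 10 stood in a merged row, so leaving merged rows out changed nothing. The count of called genes stayed at 0 at each time with a q-value under 0.1, with p-values derived from the statistic and with adjustment over rows that averaged 1 FPKM or more. With p-values derived from the statistic, an alternative added after the data had been seen, the 3 genes at 3 h and the 5 at 48 h with an unadjusted p-value under 0.05 became 0 and 0. The derived p-values were larger than the deposited ones for all 30 values, so the deposited ones were not computed in this way. Why they differ was not tested. Pseudocounts of 0.1 and 1 and centring on all tested rows changed the sign of 0 of 30 fold changes, and the largest shift, 0.56, was that of MYB122 at 3 h. The counts of fold changes that differ between times stayed at 0 with no filter and with errors from the deposited p-values, the latter chosen after seeing the data. Depth is unknown. Calls rested on the authors' deposited p-values, the largest called being 5e-05 at 3 and 24 h and 0.0001 at 48 h. The implied errors of 0.23 to 0.27 for the enzyme genes set the width of the intervals and what the tests between times could detect.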
